A study of Mus musculus with 57 samples.

Results

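The messenger RNA bound to tagged ribosomes of the endothelial line in injured kidney is compared here with what the same precipitation recovers from injured kidney that carries no tag. The members are 7 of the 57 arrays of the series, chosen by their titles: 3 of endothelial TRAP (translating ribosome affinity purification) and 4 of untagged wild-type TRAP, all 24 h after ischemia-reperfusion injury (IRI). The rule uses titles and no measured value, and 19302 genes were tested on them. The series profiled ribosome-bound RNA of 4 Cre lines of the mouse kidney (nephron, interstitial, endothelial and myeloid) and of untagged backgrounds on Affymetrix Mouse Gene 1.0 ST arrays. Mice were male, and both renal pedicles were closed for 28 min before reperfusion. The endothelial mice carried cdh5-CRE and Rosa26-CAGGS-eGFPL10a, were 6 weeks old and had a mixed C57BL/6 and 129 background. The wild-type mice are titled C57BL/6, but their strain label reads mixed C57BL/6 and 129. They were 8 weeks old and had neither Cre nor tag, so age went with the group and cannot be told apart from it. A further background of 4 injured kidneys held the Rosa26-CAGGS-eGFPL10a allele without Cre at 8 weeks, under the same mixed strain label. Their labels give that allele as heterozygous in one field and homozygous in another, and name podocytes and some collecting duct cells as the source of their background. Sham-operated endothelial mice (3 arrays, 6 weeks) and wild-type mice (2 arrays, 8 weeks) served as the uninjured counterpart. The strain label of both sham groups was the same mixed one. Injured nephron (six2-CRE, 8 weeks), interstitial (foxd1-CRE, 6 weeks) and myeloid mice (lyz2-CRE, 9.5 weeks), 3 arrays each, also carried Rosa26-CAGGS-eGFPL10a and had the same strain label as the endothelial mice. Age therefore differs in part from the endothelial mice in those comparisons as well. Expression of cdh5-CRE marks a cell and all its descendants, and the labels describe it as active throughout the vascular endothelium. Blood cell lineages arise in the embryo from endothelium that expresses Cdh5.

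TRAP depends on a GFP-tagged ribosomal protein L10a that is designed to be expressed once Cre has removed a stop cassette. Antibody beads then pull down the tagged ribosomes with the messages they carry, and some RNA of untagged cells sticks to the beads as well. Cdh5 encodes VE-cadherin, the adhesion protein of endothelial adherens junctions. Endothelium of the kidney comprises fenestrated glomerular and peritubular capillaries, arterioles, veins, the vasa recta of the medulla and lymphatic vessels. After ischemia its surface adhesion molecules help to recruit leukocytes from the blood. A higher value of a gene in the tagged than in the untagged precipitate is called its enrichment below. In such bulk samples, fewer cells of a type and less RNA per cell cannot be told apart.

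Values are log2 of the deposited intensities, and differences are log2 fold changes ± the standard error (SE) of a limma fit to the 51 TRAP arrays. A gene is called where its adjusted p (Benjamini-Hochberg over all 19302 genes) was under 0.05. The titles number the arrays of each group as biological replicates. The p-values measure only the spread between samples within groups, pooled over the 51 TRAP arrays in 17 groups. Where a gene varied more among injured wild-type arrays than elsewhere, its SE and p-value can be too small. Median intensities of the TRAP arrays lay between 105.8 and 128.4. The 3 injured endothelial arrays correlated with each other at r = 0.995 to 0.997 across genes. Among the 4 injured wild-type arrays, replicate 1 had r = 0.968 to 0.982 with the others and lay over 2-fold from their mean in 536 genes. For replicate 2 these were 0.968 to 0.987 and 312 genes, and for replicates 3 and 4 only 62 genes each. Replicate 1 held fat cell genes, and replicate 2 held less of the tubular injury gene Havcr1 than the others. Counts are therefore also given with wild-type replicates 3 and 4 alone, an alternative chosen after seeing the data.

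Of the 19302 genes, 5505 (28.5 percent) were higher and 4956 (25.7 percent) lower in injured endothelial TRAP than in wild-type TRAP. The list counts against wild type below stand beside these shares. At 2-fold or more, 1890 genes (9.79 percent) were higher and 1479 (7.66 percent) lower. With replicates 3 and 4 as the only wild-type arrays the calls were 5335 higher and 4796 lower. The split of calls depended on scaling: 52.6 percent were higher as deposited, 48.9 percent after quantile normalization and 35.5 percent after centring each array on its 75th percentile, which moved the median gene from -0.006 to -0.158. The 15 highest and 15 lowest genes named here were taken only from called genes whose arrays did not overlap between the groups. Of the 15 most enriched genes, 5 are in the macrophage, monocyte and dendritic cell list and 3 in the neutrophil list. In order, they were S100a8 (4.45), Ifitm6 (4.42), Cd53 (4.35), Wfdc17 (4.25), Gpr65 (4.25), Tyrobp (4.12), Ly86 (4.01), Ctla2a (3.99), Ngp (3.98), Cybb (3.98), S100a9 (3.97), Adgre1 (3.89), Clec4d (3.89), C1qc (3.89) and Cd86 (3.85). S100a8 and S100a9 form calprotectin of neutrophils, Tyrobp encodes the adaptor DAP12, Cybb the heavy chain of the phagocyte NADPH oxidase and Adgre1 the macrophage antigen F4/80. The lowest included the tubular injury gene Havcr1 and small nucleolar RNAs. In order from the bottom, these 15 were Havcr1 (-4.72), Snord73b (-4.25), Fgg (-4.15), Apob (-3.69), Snord57 (-3.60), Kcnma1 (-3.48), Aldh1a2 (-3.18), Mia2 (-3.11), Fermt1 (-3.09), Pigr (-2.96), Selenbp1 (-2.94), Pi15 (-2.86), Herc3 (-2.85), Timd2 (-2.82) and Fgb (-2.80). Another probe set of Kcnma1 gave -0.31, so its value depends on the probe set.

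**Figure D1:**
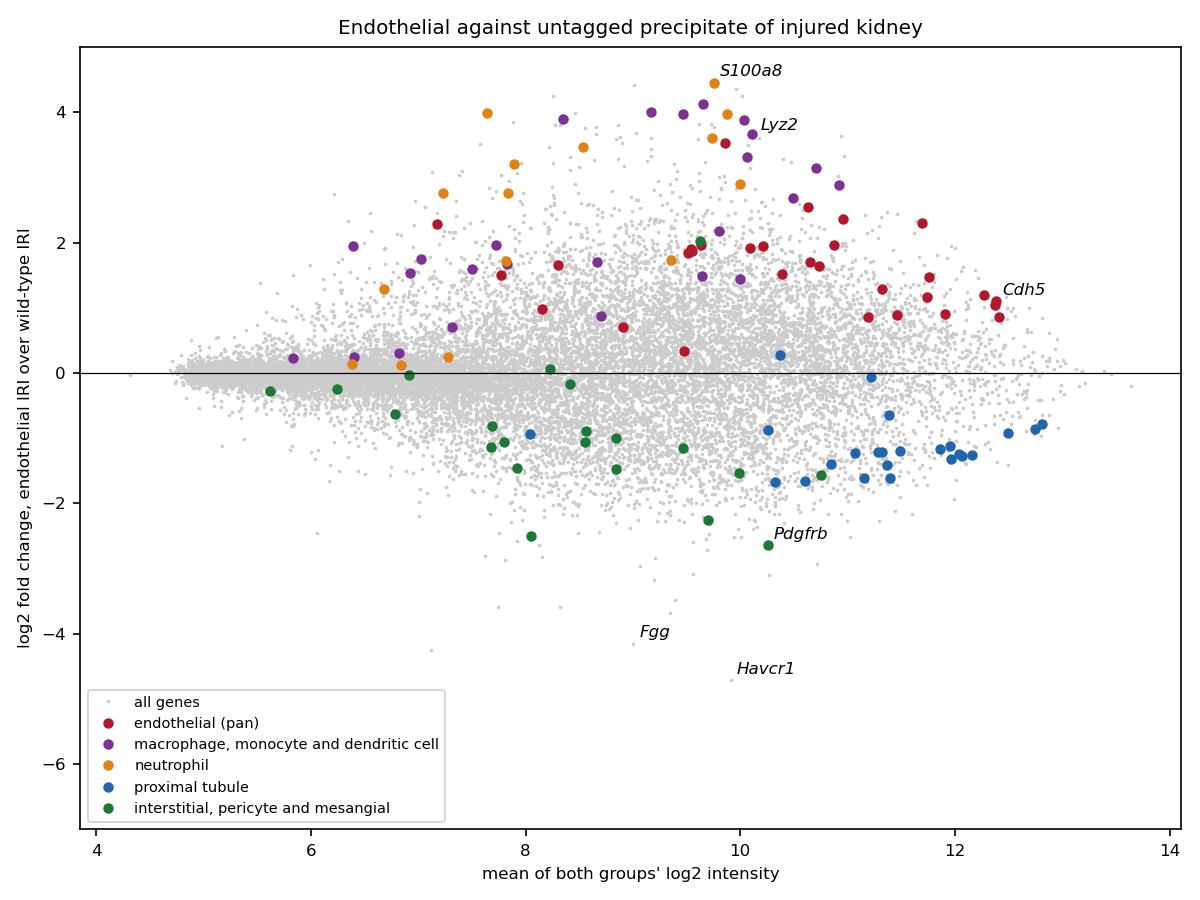
Each gene's log2 fold change of injured endothelial over injured wild-type TRAP (vertical axis) against the mean of both groups' log2 intensity (horizontal axis), with 5 marker lists in colour. The 30 endothelial genes lie above 0, macrophage and neutrophil genes reach higher values, and most proximal tubule and interstitial genes lie below 0.

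All 30 measured endothelial marker genes were higher in the tagged precipitate, with a median of 1.58 against -0.01 over all genes and a range of 0.34 to 3.53. With wild-type replicates 3 and 4 alone, 29 were. The summed intensity of the 30 genes was 97953 to 106276 in the injured endothelial arrays and 30211 to 46526 in the wild-type arrays. Cdh5, whose promoter drives the Cre, read 12.84, 12.93 and 13.00 in the endothelial arrays and 11.84, 11.57, 11.98 and 11.92 in the wild-type arrays. All endothelial values lay above all wild-type values, and the difference was 1.10 ± 0.15 (adjusted p = 3.17e-08). Pecam1, the platelet and endothelial adhesion molecule CD31, read 11.96, 11.97 and 11.97 against 11.14, 10.17, 10.65 and 10.76 (1.29 ± 0.14, adjusted p = 3.14e-10). The groups did not overlap. Kdr, the main VEGF receptor of endothelium, read 12.35, 12.27 and 12.34 against 11.52, 10.72, 11.14 and 11.27 (1.16 ± 0.16, adjusted p = 5.99e-08). Tek, the angiopoietin receptor TIE2, read 10.55, 10.33 and 10.59 against 9.74, 7.86, 8.41 and 8.46 (1.88 ± 0.22, adjusted p = 1.9e-09). The spread among wild-type arrays was wider than among endothelial arrays for both receptors, and neither overlapped. Emcn, the sialomucin endomucin of capillaries and veins, read 12.82, 12.88 and 12.91 against 11.67, 11.53, 11.81 and 11.68 (1.20 ± 0.09, adjusted p = 1.67e-14).

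Within this list of 30 the largest enrichment was that of Esm1, a secreted proteoglycan of VEGF-exposed endothelium (endocan). It read 11.42, 11.88 and 11.56 in the endothelial arrays and 7.45, 7.71, 8.18 and 9.03 in the wild-type arrays (3.53 ± 0.24, adjusted p = 1.19e-15). All endothelial arrays were high and all wild-type arrays low. Cd34, a sialomucin of vascular and progenitor cells, was enriched by 2.54, and Plvap, which forms the diaphragms of fenestrae, by 2.29. Robo4, a guidance receptor of endothelium, was enriched by 1.97. The smallest in the list were those of Nos3, the endothelial nitric oxide synthase, at 0.34 ± 0.13 (adjusted p = 0.0243), and Erg, an ETS transcription factor, at 0.71 ± 0.14.

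**Figure D2:**
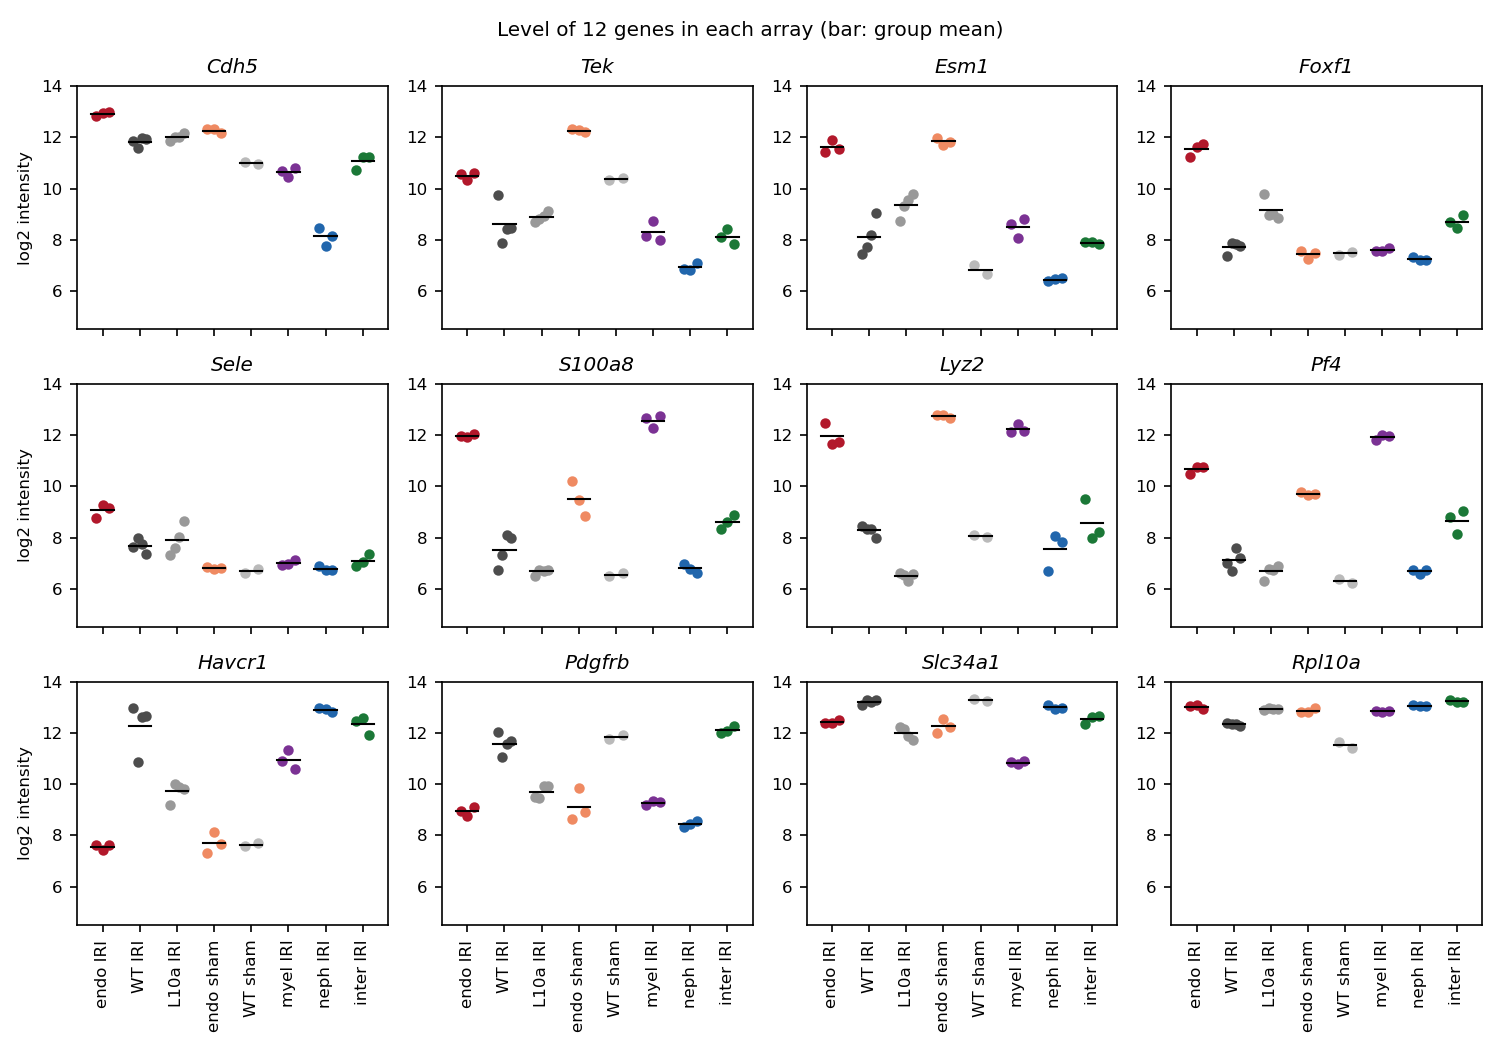
Log2 intensity (vertical axis) of 12 genes in every array of 8 groups (endo, endothelial; WT, wild type; L10a, L10a background; myel, myeloid; neph, nephron; inter, interstitial), one point per array with a bar at the group mean. Cdh5, Tek and Esm1 are higher in endothelial than in wild-type arrays, Foxf1 is highest in the injured endothelial arrays, S100a8 is high in injured endothelial and myeloid arrays, and Havcr1 is high in injured wild-type and low in injured endothelial arrays.

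ETS factors bind purine-rich words around GGAA. The promoters of the endothelial marker genes, which were all enriched here, were searched for the word CAGGAAG on both strands (250 bases before to 50 after the start, RefSeq, GRCm38.p6). Whether these genes are regulated together was not tested. The word was chosen after the shares of several words were seen. The word occurred in 13.3 percent of all 32851 promoters (4359). It was found in any promoter of 14.8 percent of the 27025 genes with an entry and in 7 of the 18 endothelial marker genes with an entry (38.9 percent): Adgrf5, Cd34, Cyyr1, Egfl7, Emcn, Erg and Robo4. Among macrophage markers it occurred in 4 of 18 (22.2 percent), and among proximal tubule markers in 2 of 20 (10.0 percent). The longer word CCGGAAGT was present in 3.9 percent of all promoters, in 4.3 percent of genes and in 0 of the 18 endothelial ones. A match is a description of the letters and not of binding. The promoters of 3 enriched genes are shown to let the windows be read, with the word or its reverse complement CTTCCTG in capitals: Emcn (chr3:137340828-137341127, plus strand), Robo4 (chr9:37401722-37402021, plus strand) and Esm1 (chr13:113209409-113209708, plus strand), of which the last holds none.
Emcn: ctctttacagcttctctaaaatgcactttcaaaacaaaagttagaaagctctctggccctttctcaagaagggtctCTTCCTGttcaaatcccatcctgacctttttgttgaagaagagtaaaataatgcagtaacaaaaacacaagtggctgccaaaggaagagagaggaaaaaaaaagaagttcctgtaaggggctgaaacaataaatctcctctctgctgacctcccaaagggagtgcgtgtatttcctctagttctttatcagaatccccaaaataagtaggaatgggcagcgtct
Robo4: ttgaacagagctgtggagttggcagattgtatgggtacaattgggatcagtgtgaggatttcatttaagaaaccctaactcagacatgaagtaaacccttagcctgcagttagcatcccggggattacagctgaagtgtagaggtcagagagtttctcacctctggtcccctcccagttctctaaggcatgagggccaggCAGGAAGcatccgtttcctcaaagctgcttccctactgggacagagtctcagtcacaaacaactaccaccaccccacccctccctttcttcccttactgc
Esm1: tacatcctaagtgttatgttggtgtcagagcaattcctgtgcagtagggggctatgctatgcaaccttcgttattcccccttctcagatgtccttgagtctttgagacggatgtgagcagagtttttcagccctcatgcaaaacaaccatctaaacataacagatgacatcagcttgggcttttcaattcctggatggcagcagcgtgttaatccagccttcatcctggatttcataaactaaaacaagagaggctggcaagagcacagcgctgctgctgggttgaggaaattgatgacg

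Transcription factors of endothelium were enriched in 26 of 30 and lower in 1 (Heyl, -0.65), with a median of 1.32. Foxf1, a forkhead factor of visceral mesenchyme and endothelium, led them. It read 11.22, 11.63 and 11.75 in the injured endothelial arrays, 7.38, 7.89, 7.82 and 7.75 in injured wild type, 9.80, 8.97, 8.99 and 8.84 in L10a background, 7.57, 7.24 and 7.50 in sham endothelial and 7.42 and 7.52 in sham wild type. The injured endothelial arrays were above all of these, the L10a background arrays came next, and the difference was 3.82 ± 0.15 against injured wild type (adjusted p = 3.85e-22). A second probe set of Foxf1 gave 4.78. Hhex, a homeobox factor of early endothelium, was enriched by 3.46, and Meox1 by 3.16. The SOXF factors of vessel identity were enriched alike, Sox7 by 2.71, Sox17 by 2.70 and Sox18 by 2.07. Klf2 and Klf4, which respond to flow, were enriched by 2.05 and 1.69. The ETS factor Fli1 was enriched by 2.36 and Ets1 by 0.63. Against L10a background 20 of the 30 factors were higher and 4 lower (18.9 and 20.6 percent of all genes). Against injured myeloid arrays 21 were higher and 2 lower (22.8 and 22.5 percent of all genes).

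Among genes of VEGF, angiopoietin, Notch and BMP signalling, 22 of 30 were enriched and 4 were lower (median 0.97). Among the receptors, Tie1 was enriched by 1.95, S1pr1 of sphingosine phosphate by 2.42, the lymphatic VEGF receptor Flt4 by 1.25, Notch1 by 1.32 and Nrp2 by 1.27. Angpt2, the TIE2 ligand stored in endothelial granules, read 10.75, 10.80 and 10.89 against 8.30, 7.79, 8.44 and 8.27 in wild type (2.61 ± 0.19, adjusted p = 5.05e-15). Placental growth factor Pgf read 9.35, 9.71 and 9.78 against 7.39, 6.67, 6.81 and 6.87 (2.68 ± 0.18, adjusted p = 1.64e-15). Neither gene overlapped between groups. Dll4, the Notch ligand of arterial and tip cells, was enriched by 1.61 and Pdgfb, which recruits pericytes, by 1.29. The 4 lower genes were the VEGF coreceptor Nrp1 (-0.86), the growth factor Vegfa (-1.05), the TIE2 ligand Angpt1 (-0.70) and the bone morphogenetic protein Bmp6 (-1.75).

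Of 19 junction, adhesion and glycocalyx genes 16 were enriched and 0 lower (median 1.39). The tight junction genes Cldn5 (1.90) and Jam2 (1.94) and the protein C receptor Procr (2.05) were among them, while Thbd, which encodes thrombomodulin, was not called (-0.16 ± 0.20, adjusted p = 0.525). Of 18 vasoactive genes 11 were enriched and 6 lower. The enriched ones included the receptor activity-modifying proteins of adrenomedullin, Ramp3 (3.50) and Ramp2 (2.65), their partner Calcrl (1.53), the endothelin B receptor Ednrb (2.04), Edn1 itself (2.22) and Apln (2.21). Edn1, the constrictor peptide endothelin-1, read 10.33, 10.66 and 10.41 in the endothelial arrays and 8.40, 7.53, 8.05 and 9.02 in the wild-type arrays (2.22 ± 0.26, adjusted p = 1.38e-09), without overlap. The 6 lower genes were the soluble guanylate cyclase subunits Gucy1a1 (-2.17) and Gucy1b1 (-1.78), the angiotensin receptor Agtr1a (-1.27), Ace (-1.24), Ptgs2 (-0.97) and Ptgis (-0.58). Genes of caveolae, lipid uptake and transport were divided, 6 of 16 higher and 8 lower. Of all genes, 28.5 percent were higher and 25.7 percent lower. Gpihbp1, which holds lipoprotein lipase on capillaries (2.56), Fabp5 (2.10) and Cav1 (1.96) were enriched. Mfsd2a, the lipid transporter of the blood-brain barrier (-2.38), the transferrin receptor Tfrc (-1.59) and the drug pump Abcb1a (-1.54) were lower.

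Markers of particular vascular beds were counted separately. Over all genes, 28.5 percent were higher and 25.7 percent lower than in wild type. In the arterial list 10 of 14 genes were enriched and 1 was lower (median 0.88), led by Sox17, Dll4 and Efnb2 (1.58). The connexin Gja5, a marker of arteriolar endothelium, was not called (0.23 ± 0.12, adjusted p = 0.0939). In the peritubular and venous list 8 of 10 were enriched and 1 lower (median 0.88), with Plvap and Cd9 (1.55) in front. In the glomerular list 5 of 10 were enriched and 2 lower (median 0.40). Smad6 (2.35), Hecw2 (2.12) and Ehd3 (0.80), an endocytic protein of glomerular endothelium, were enriched, while the lipoprotein lipase gene Lpl (-1.42) and the semaphorin Sema5a (-0.94) were lower. The enriched count was 3 without endothelial IRI replicate 1 and 3 after centring on the 75th percentile. All 6 lymphatic genes were enriched (median 1.18). Mmrn1, a multimerin of lymphatic endothelium and platelets, read 10.07, 9.63 and 10.51 against 7.98, 6.18, 6.38 and 6.48 (3.31 ± 0.31, adjusted p = 5.77e-12). The hyaluronan receptor Lyve1, which some macrophages also carry, was enriched by 2.78, and the lymphatic factor Prox1, which other kidney cells can also express, by 0.82. Of 3 vasa recta genes the urea transporter Slc14a1 was enriched (1.97 ± 0.13, adjusted p = 8.58e-16), Slc5a3 was lower (-1.98) and Aqp1 was not called (-0.06).

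Genes that activated endothelium makes were enriched in 8 of 16 and lower in 1, the coagulation starter F3 (-1.19). The median was 0.64. Without wild-type IRI replicate 1, 9 were enriched and 2 lower, with a median of 0.97. Sele, the leukocyte-capturing E-selectin, read 8.75, 9.28 and 9.15 in injured endothelial, 7.62, 7.98, 7.75 and 7.34 in injured wild type and 6.85, 6.79 and 6.80 in sham endothelial arrays (1.39 ± 0.16 over injured wild type, adjusted p = 2.09e-09). The injured endothelial arrays were above both other groups. Vcam1 was enriched by 1.64 ± 0.31 (adjusted p = 2.2e-05) and Icam1 by 1.29 ± 0.21 (adjusted p = 1.71e-06). The monocyte chemoattractant Ccl2 was enriched by 2.49, while Cxcl1 (0.27) and Il6 (-0.47) were not called. Of 19 immediate early and AP-1 genes 10 were enriched and 1 (Myc, -0.82) was lower. The median of this list was 0.49, and 0.17 without wild-type IRI replicate 1, where 3 were lower. Ier2 (1.39) and Nr4a1 (1.06) were the most enriched of them.

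All 15 interferon response genes were enriched (median 1.09), and 14 were with wild-type replicates 3 and 4 alone. Xaf1, an interferon-induced gene, read 9.72, 9.87 and 10.02 in the endothelial arrays and 6.79, 6.95, 6.62 and 6.23 in the wild-type arrays (3.22 ± 0.19, adjusted p = 1.8e-17). The endothelial arrays were all higher. Bst2, tetherin, was enriched by 2.40, the chemokine Cxcl9 by 2.29, the guanylate binding protein Gbp3 by 1.93 and Rsad2, viperin, by 1.75.

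Markers of blood-borne cells were enriched along with the endothelial genes. Of 25 macrophage, monocyte and dendritic cell genes 23 were higher and 0 lower, with a median of 1.95. With wild-type replicates 3 and 4 alone, 21 were higher. Their summed intensity was 37488 to 54002 in injured endothelial, 6129 to 6868 in injured wild-type and 89932 to 100701 in injured myeloid arrays (Lyz2 Cre line, 9.5 weeks). Lyz2, lysozyme of myeloid cells, read 12.47, 11.63 and 11.74 in endothelial and 8.45, 8.35, 8.33 and 8.00 in wild-type arrays (3.66 ± 0.28, adjusted p = 2.65e-14). Adgre1 read 11.30, 9.86 and 9.73 against 6.49, 6.50, 6.20 and 6.42 (3.89 ± 0.23, adjusted p = 1.72e-17). Every endothelial array was above every wild-type array for both genes, and endothelial replicate 1 was the highest. For Adgre1 the choice of the most enriched named genes required this separation. The chemokine receptor Ccr2 of inflammatory monocytes (0.24 ± 0.19, adjusted p = 0.303) and Xcr1 of cross-presenting dendritic cells (0.22 ± 0.13, adjusted p = 0.141) were the genes of this list not called. Ptprc, the pan-leukocyte antigen CD45, was enriched by 2.58 ± 0.19 (adjusted p = 1.43e-14).

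Of 15 neutrophil genes 13 were higher and 0 lower, with a median of 2.77, and 12 were higher with wild-type replicates 3 and 4 alone. Their summed intensity was 18657 to 20446 in injured endothelial, 1457 to 3386 in injured wild-type, 2199 to 4172 in sham endothelial and 27586 to 36572 in injured myeloid arrays. S100a8 read 11.98, 11.93 and 12.03 in endothelial and 6.72, 7.31, 8.11 and 7.97 in wild-type arrays (4.45 ± 0.31, adjusted p = 2.03e-15). Ngp, a granule protein of neutrophils, read 9.21, 9.86 and 9.81 against 5.21, 5.50, 6.06 and 5.82 (3.98 ± 0.32, adjusted p = 1.78e-13). Neither gene overlapped between the groups, which the choice of the most enriched named genes required. Elane (0.12) and Mpo (0.13), made by neutrophil precursors in the marrow, were not called. Mpo read 6.48, 6.48 and 6.38 in the endothelial and 6.11, 6.48, 6.22 and 6.47 in the wild-type arrays, so these overlapped. The platelet chemokine Pf4 read 10.49, 10.76 and 10.74 against 7.02, 6.70, 7.59 and 7.20 (3.53 ± 0.18, adjusted p = 2.16e-19). Of 6 platelet genes 5 were higher, with a median of 0.64. That platelet count was 3 without endothelial IRI replicate 2, with wild-type replicates 3 and 4 alone and after centring on the 75th percentile. The summed intensity of the platelet genes was 3098 to 4080 in endothelial, 849 to 1219 in wild-type and 9119 to 9519 in injured myeloid arrays. Of 15 lymphocyte and natural killer genes 10 were higher by a median of 0.33 (5 after centring on the 75th percentile), led by the B cell receptor component Cd79b (1.45). Cd3g of the T cell receptor was higher by 0.53 ± 0.14 (adjusted p = 0.0017). None of 3 erythroid genes was called. The part of these cell types in the enrichment of endothelial genes was not tested.

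**Figure D3:**
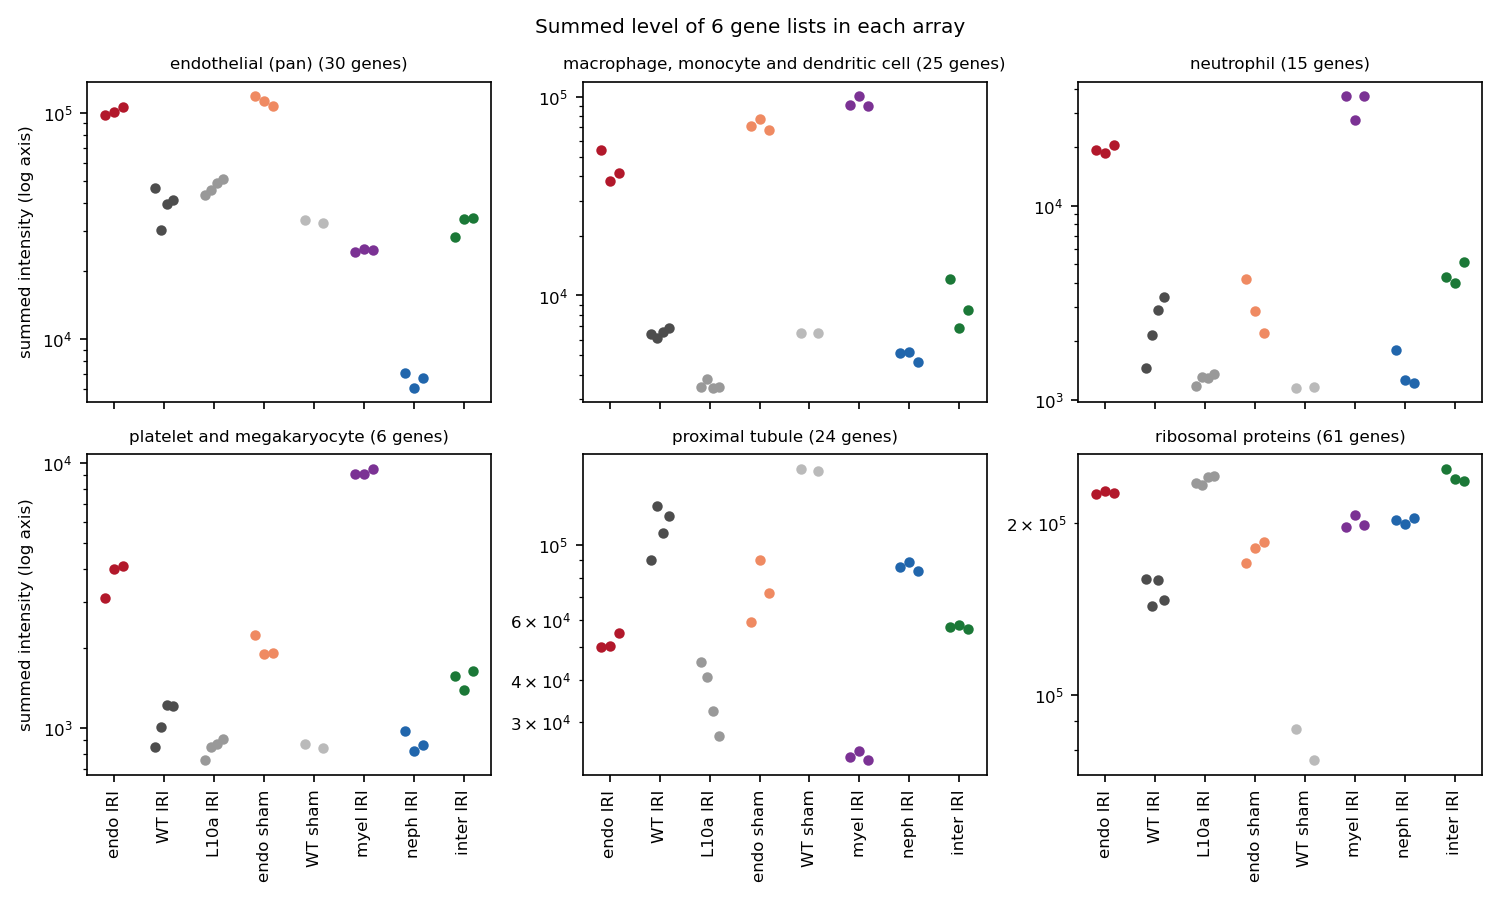
Summed linear intensity of marker lists in every array of 8 groups, one point per array on a log axis. Endothelial genes sum to 97953 to 106276 in injured endothelial arrays against 24255 to 24907 in injured myeloid arrays, while macrophage and neutrophil sums are high in the injured arrays of both lines and low in wild-type and L10a background arrays.

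The injured myeloid arrays were set beside the endothelial ones in a comparison chosen after seeing the data, since the macrophage and neutrophil genes were enriched in the latter. Of all genes, 4409 (22.8 percent) were higher and 4343 (22.5 percent) lower in endothelial than in myeloid arrays. All 30 endothelial markers were higher in endothelial arrays, with a median of 2.22. Of the 25 macrophage genes 0 were higher and 22 lower in endothelial arrays (median -1.42). Of the 15 neutrophil genes 2 were higher and 7 lower (median -0.63). The highest genes were Foxf1 (3.93), Mmrn1 (3.85), the death receptor Tnfrsf10b (3.68), coagulation factor F8 (3.67), the inhibin subunit Inhbb (3.58) and Sema3d (3.52). The lowest were Ms4a4a (-4.71), Ms4a6b (-4.19), Nxpe5 (-4.17), Arg1 (-3.89), an enzyme of alternatively activated macrophages, Clec4a3 (-3.76) and Dpep2 (-3.70), whose probe sets disagreed against wild type.

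Tubular genes were lower in the tagged than in the wild-type precipitate. Of 24 proximal tubule genes 22 were lower and 0 higher, with a median of -1.21, and 21 were lower with wild-type replicates 3 and 4 alone. Their summed intensity was 50042 to 55020 in endothelial and 90094 to 129810 in wild-type arrays. Slc34a1, the phosphate carrier of the proximal brush border, read 12.37, 12.40 and 12.48 against 13.07, 13.28, 13.19 and 13.26 (-0.78 ± 0.14, adjusted p = 1.03e-05). Every endothelial array was below every wild-type array. Of 12 ascending limb and distal tubule genes 5 were lower and 1 (Cldn16, 0.53) was higher. Slc12a1, the cotransporter blocked by loop diuretics, was not called (-0.57 ± 0.33, adjusted p = 0.145). Of 13 collecting duct genes 8 were lower and 3 higher, the latter being Fxyd4 (1.11), Hsd11b2 (1.05) and the water channel Aqp2 (0.71). Of 9 podocyte genes 2 were higher, Cdkn1c (1.52) and Podxl (0.98), of which endothelium also expresses the latter, and 2 lower. Over all genes, 28.5 percent were higher and 25.7 percent lower, so the podocyte counts did not stand out from these shares.

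Genes that injured tubules induce were lower as well, 13 of 19, with 2 higher and a median of -0.95. Havcr1, which encodes the injury molecule KIM-1 of proximal tubules, read 7.61, 7.42 and 7.64 in endothelial, 12.96, 10.87, 12.61 and 12.66 in wild-type and 9.17, 9.99, 9.89 and 9.80 in L10a background arrays (-4.72 ± 0.46 against wild type, adjusted p = 1.76e-11). Wild-type replicate 2 was lower than the other wild-type arrays but still above every endothelial array, which the choice of the lowest named genes required. The fibrinogen gamma chain Fgg, induced in injured tubules, read 6.98, 6.72 and 7.10 in endothelial and 12.32, 8.79, 11.40 and 11.82 in wild-type arrays (-4.15 ± 0.53, adjusted p = 1.38e-08). The keratin Krt20 was lower by 1.94 (adjusted p = 6.89e-06) and Krt19 by 1.35. Lcn2, the lipocalin NGAL, was not called (-0.78 ± 0.41, adjusted p = 0.111). Plaur, the urokinase receptor (1.07), and Sprr2g (1.36) were higher.

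Interstitial, pericyte and mesangial genes were lower in 16 of 21 and higher in 1 (median -1.06). With wild-type replicates 3 and 4 alone, or without replicate 1 alone, 13 were lower, with medians of -0.70 and -0.64. Their summed intensity was 6924 to 8338 in endothelial and 12418 to 29199 in wild-type arrays, of which replicate 1 gave 29199 and the others 12418, 14636 and 15548. Pdgfrb, the pericyte receptor for PDGF-B, read 8.93, 8.75 and 9.11 against 12.03, 11.06, 11.56 and 11.67 (-2.65 ± 0.21, adjusted p = 6.8e-14). Every endothelial array was below every wild-type array. Desmin (Des, -2.50) and Pdgfra (-2.26) were lower by similar amounts. The exception was Kcnj8, the potassium channel subunit of pericytes, which was higher (2.03 ± 0.19, adjusted p = 6.36e-12). Adipocyte genes were lower in 4 of 7 (median -1.14), but in 0 without wild-type IRI replicate 1, when the median was -0.31, and in 1 without any single endothelial array. Cidec, a lipid droplet protein, read 12.03, 8.08, 8.14 and 8.35 in the wild-type arrays, with replicate 1 far above the rest. The summed adipocyte intensity was 920 to 13301 in wild-type and 761 to 829 in endothelial arrays.

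Messages of most ribosomal protein genes were enriched against wild type. Of 61 ribosomal protein genes 49 were higher and 1 lower (median 0.68), and 42 higher with 4 lower after centring on the 75th percentile. Their summed intensity was 224724 to 227510 in injured endothelial, 143279 to 159799 in injured wild-type and 233043 to 241534 in L10a background arrays. Rpl10a, whose protein carries the tag, read 13.05, 13.07 and 12.92 against 12.40, 12.34, 12.34 and 12.26 in wild type (0.68 ± 0.06, adjusted p = 2.27e-13). The groups did not overlap, and the probe set does not tell the tagged from the native message here. Small nucleolar RNAs, which guide the modification of ribosomal RNA in the nucleolus and are not translated, were lower in 35 of 47 and higher in 1 (median -0.51). With a filter of log2 above 7 in 3 arrays, which tested fewer of them, 15 were lower. Snord57 read 6.90, 6.35 and 6.30 in endothelial and 10.23, 9.64, 10.37 and 10.22 in wild-type arrays (-3.60 ± 0.53, adjusted p = 2.03e-07). The cytoplasmic actin Actb was not called (-0.02 ± 0.04, adjusted p = 0.751).

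Against the L10a background arrays, 3652 genes (18.9 percent) were higher and 3970 (20.6 percent) lower in the same 3 injured endothelial arrays. This comparison shares those arrays with the one against wild type, so values are only set side by side. Of the 30 endothelial markers 29 were higher (median 1.23), Cldn5 being the exception (0.13 ± 0.25, adjusted p = 0.744). Cdh5 read 11.85, 12.01, 12.02 and 12.18 in the L10a arrays and was higher in the endothelial arrays by 0.91 ± 0.15 (adjusted p = 2.14e-06). Macrophage genes were higher in 23 of 25 (median 2.94) and neutrophil genes in 13 of 15 (median 3.76). The 6 highest genes were Wfdc17 (6.00), Cd53 (5.82), Lyz2 (5.43), S100a8 (5.30), the Fc receptor Fcgr3 (5.19) and C1qc (5.14). The 6 lowest were Grp (-3.89), Sprr2f (-3.85), the kallikrein Klk1b22 (-3.47), Kcnma1 (-3.40), Hpcal4 (-3.37) and Sprr2g (-3.17).

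The direction of the proximal tubule genes differed between the backgrounds. Against wild type 22 of 24 were lower, while against L10a background 16 were higher and 0 lower (median 0.72). The latter count was 10 without endothelial IRI replicate 3 and 9 without L10a background IRI replicate 4. Summed proximal tubule intensity was 27263 to 45154 in L10a background arrays, below the 50042 to 55020 of the endothelial arrays and the 90094 to 129810 of the wild-type arrays. Lrp2, the endocytic receptor megalin, read 11.05, 10.90, 10.47 and 10.27 in L10a background, 11.34, 11.36 and 11.52 in endothelial and 12.62, 12.58, 12.64 and 12.78 in wild-type arrays. Podocyte genes summed to 13359 to 17972 in L10a background and 4621 to 5974 in wild-type arrays, and collecting duct genes to 17200 to 20702 and 7389 to 9106. Both lists, whose cells the labels name for the L10a background, were lower in the endothelial arrays than there, in 7 of 9 podocyte genes (median -1.72) and 12 of 13 collecting duct genes (median -1.85). Nphs1, the slit diaphragm protein nephrin, read 9.82, 9.49, 10.20 and 10.03 in L10a background and 7.64, 7.63 and 7.19 in endothelial arrays (-2.40 ± 0.20, adjusted p = 8.66e-13). Wt1, the podocyte transcription factor, was lower by 2.48 and Foxd1, a factor of stroma and podocytes, by 2.75. Over all genes, 18.9 percent were higher and 20.6 percent lower against L10a background. Ribosomal protein genes, enriched against wild type, were higher in 1 and lower in 16 of 61 there (median -0.07). That lower count was 9 without endothelial IRI replicate 1, 10 without endothelial IRI replicate 3 or L10a background IRI replicate 3 and 9 after centring on the 75th percentile. Small nucleolar RNAs were higher in 6 and lower in 1 of 47, with 3 higher without endothelial IRI replicate 1 or 2.

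**Figure D4:**
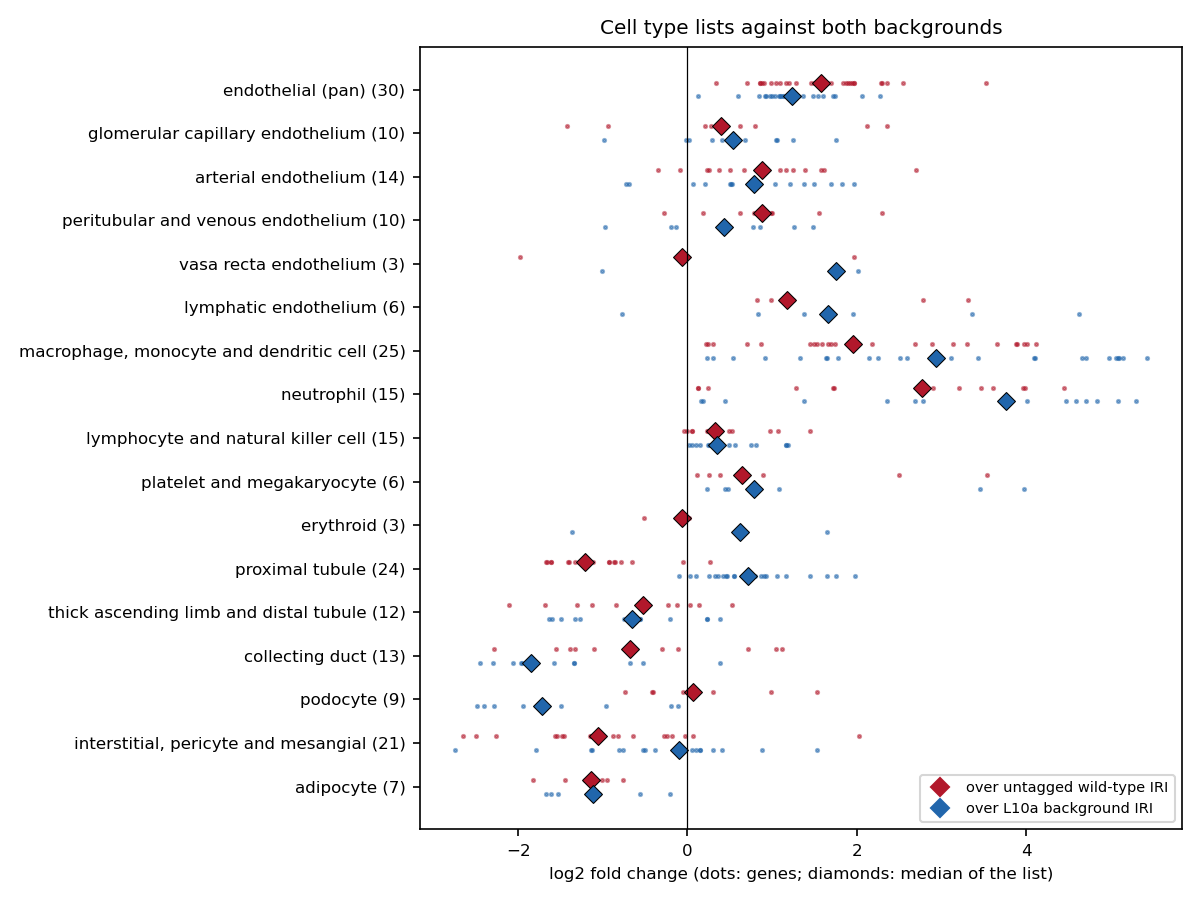
Log2 fold change of injured endothelial TRAP for the genes (dots) and the median (diamonds) of 17 cell type lists, against injured wild-type (red) and injured L10a background TRAP (blue), with the number of genes in brackets. Endothelial, macrophage and neutrophil lists lie above 0 against either background, whereas the proximal tubule list is at -1.21 against wild type and 0.72 against L10a background.

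In sham-operated kidneys the corresponding comparison (3 endothelial against 2 wild-type arrays) called 5972 genes (30.9 percent) higher and 5678 (29.4 percent) lower. Of those calls 51.3 percent were higher as deposited, and 29.5 percent after centring on the 75th percentile, which moved the median gene from -0.05 to -0.334. Across the 19302 genes the enrichment in sham and in injured kidneys, which share no array, correlated at r = 0.81 and rho = 0.76. Genes are not independent replicates, and no test was made of this. Of the endothelial markers 29 of 30 were enriched in sham kidney, with a median of 1.99 against 1.58 after injury. Vwf was the exception (0.11). The most enriched genes in sham were Wfdc17 (5.98), Cd53 (5.33), Fcer1g (5.28), Tyrobp (5.24), Cd52 (5.22) and Fcgr4 (5.13). The lowest were Slc7a12 (-4.39), Slco4c1 (-4.39), Kcnma1 (-3.85), Abca13 (-3.77), Pigr (-3.71) and Cpn1 (-3.64).

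The difference of the enrichments, injured minus sham, was tested as 1 contrast. It was positive in 2660 genes (13.8 percent) and negative in 3892 (20.2 percent). Of these calls 40.6 percent were positive as deposited, 49.8 percent after quantile normalization and 55.8 percent after centring on the 75th percentile, where the median gene moved from 0.024 to 0.156. With wild-type IRI replicates 3 and 4 alone, 2922 were positive and 3818 negative. Endothelial markers were less enriched after injury in 14 of 30 and more in 2, Plvap (0.46) and Vwf (0.87), with a median of -0.58. Without wild-type sham replicate 2 the former count was 10, and without wild-type IRI replicate 1 the median was -0.37. The latter count was 1 without any single one of 7 of the 12 arrays. Icam2 of endothelial junctions was enriched by 1.65 after injury and 2.69 in sham (-1.03 ± 0.15, adjusted p = 5.2e-07). Erg was enriched by 0.71 against 1.85 (-1.14 ± 0.23, adjusted p = 0.000107). Cdh5 itself had 1.10 against 1.26, a difference of -0.16 ± 0.23 (adjusted p = 0.642), and was not called. Sums of the endothelial list were 106753 to 118629 in sham endothelial and 32518 to 33694 in sham wild-type arrays. From sham to injury, 3 of the 30 rose and 11 fell in endothelial TRAP (median -0.2), against 25.1 and 24.3 percent of all genes. In wild-type TRAP 12 rose and 4 fell (median 0.14), against 22.9 and 20.3 percent. The difference of enrichments holds both changes.

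Neutrophil and macrophage genes differed in opposite directions. Neutrophil genes were more enriched after injury in 11 of 15 and less in 0 (median 1.57), with 8 more enriched and a median of 0.99 when wild-type IRI replicates 3 and 4 were used alone. Ngp read 5.25, 5.20 and 5.01 in sham endothelial and 5.37 and 5.15 in sham wild-type arrays, where the groups overlapped, and its enrichment was larger after injury by 4.09 ± 0.51 (adjusted p = 3.66e-08). Cxcr2, the chemokine receptor of neutrophils, was enriched by 3.47 against 0.93 in sham (2.54 ± 0.42, adjusted p = 6.1e-06). Macrophage genes were less enriched after injury in 15 of 25 and more in 0 (median -1.04). Without wild-type sham replicate 2 that count was 10. Ccr2 read 10.32, 10.22 and 10.05 in sham endothelial arrays and 6.56, 6.57 and 6.42 in injured ones (-3.52 ± 0.29 for the difference of enrichments, adjusted p = 6.74e-12). Cx3cr1, the fractalkine receptor of resident macrophages, gave -2.76 ± 0.32 and Xcr1 -2.92 ± 0.20. Adgre1 was not called (0.62 ± 0.35, adjusted p = 0.189).

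The difference of enrichments was largest for Slc7a12 (4.20), Ngp (4.09), Slco4c1 (3.91), Foxf1 (3.86), Clec4d (3.51) and Kynu (3.22). For Slc7a12 and Slco4c1, carriers of the proximal tubule, and for Kynu, of tryptophan breakdown, the wild-type arrays gave -4.22, -4.97 and -3.86 from sham to injury, against -0.03, -1.06 and -0.64 in endothelial arrays. Slc7a12 read 8.94 and 10.03 in sham wild-type and 5.24, 5.41, 5.21 and 5.21 in injured wild-type arrays, against 5.02, 5.32 and 4.94 in sham and 5.09, 5.14 and 4.97 in injured endothelial arrays. All but the sham wild-type values lay near the log2 of 5 that the filter asks for, so this gene could hardly fall in endothelial arrays and its differences are no exact folds. The enrichment was smaller after injury for Havcr1 (-4.78), the immunoglobulin genes Igkv10-96 (-4.33) and Jchain (-3.73), the leukotriene receptor Cysltr1 (-3.68), the interferon-induced Ifi44l (-3.56) and Ccr2 (-3.52).

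**Figure D5:**
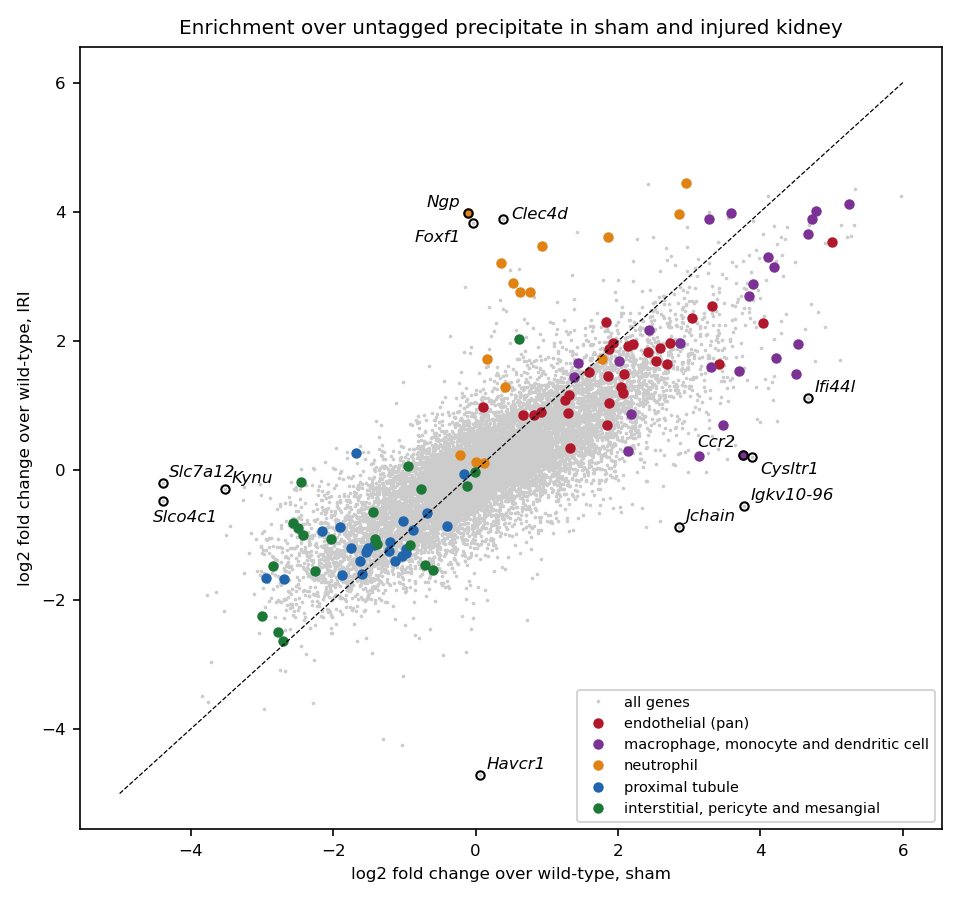
Each gene's log2 enrichment of endothelial over wild-type TRAP in sham kidney (horizontal axis) and in injured kidney (vertical axis), with marker lists in colour, the line of equal enrichment dashed and the 12 genes of the largest differences ringed. Most neutrophil genes lie above the line and many macrophage and endothelial genes below it.

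The change with injury within the endothelial arrays is given beside these values and shares arrays with them. From sham to injury, 4854 genes (25.1 percent) rose and 4696 (24.3 percent) fell in endothelial TRAP. After centring on the 75th percentile 64.8 percent of the calls were higher, against 50.8 percent as deposited, and the median gene moved from 0.065 to 0.171. In wild-type TRAP 4428 (22.9 percent) rose and 3917 (20.3 percent) fell. Foxf1 rose by 4.10 ± 0.16 (adjusted p = 8.35e-22) in endothelial TRAP. The other 5 largest rises there were those of Krt20 (5.25), Ngp (4.47), the neutrophil chemokine Cxcl2 (4.34), Cxcr2 (4.26) and the decoy receptor Il1r2 (4.26). The 6 largest falls were those of Cysltr1 (-3.89), Akr1c18 (-3.81), Ccr2 (-3.68), Cx3cr1 (-3.67), Ifi44l (-3.67) and Olfr1396 (-3.58). In wild-type TRAP the largest rises were those of Krt20 (6.50), Lcn2 (5.36), Havcr1 (4.63), Plk3 (4.34), Gprc5a (4.22) and Atf3 (3.76). The largest falls were those of Slco4c1 (-4.97), Slc7a12 (-4.22), Akr1c18 (-4.17), Slc22a19 (-4.01), Kynu (-3.86) and Mep1b (-3.78). Tubular injury genes rose in 14 of 19 in endothelial TRAP (median 1.82) and in 19 in wild-type TRAP (median 3.06). Havcr1 was the plainest contrast, with -0.15 in endothelial TRAP (adjusted p = 0.818), while Krt20 rose in both. Endothelial activation genes rose in 15 of 16 in endothelial TRAP (median 1.35) and in 10 in wild-type TRAP (median 0.98).

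Against the mean of the nephron, interstitial and myeloid lines after IRI, which removes the untagged arrays, 4670 genes (24.2 percent) were higher and 4632 (24.0 percent) lower in endothelial TRAP. All 30 endothelial markers were higher, with a median of 2.65. The highest genes were Esm1 (4.01), Inhbb (3.78), the GTPase Gimap6 (3.71), Foxf1 (3.68), Depp1 (3.66) and Gpihbp1 (3.59). Esm1 read 6.38, 6.46 and 6.49 in nephron, 7.90, 7.92 and 7.85 in interstitial and 8.63, 8.05 and 8.81 in myeloid arrays, each below all endothelial values. The lowest were Havcr1 (-4.50), Fgg (-3.71), Fgb (-3.47), Dph6 (-2.73), the tight junction gene Cldn1 (-2.68) and Pigu (-2.58). Cdh5 was higher by 2.98 ± 0.13 (adjusted p = 2.52e-21) than the mean of the other lines. Six2, whose Cre marks the nephron line, was lower in endothelial than in wild-type TRAP by 0.43 (adjusted p = 0.000436), and Foxd1, of the interstitial line, was not called against wild type (-0.03, adjusted p = 0.864).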

How the data were processed

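Ribosome-bound RNA of 7 arrays was compared within a fit to 51 TRAP arrays in 17 groups. The deposited values are linear intensities per probe set, summarized by the authors with RMA in Affymetrix Expression Console 1.3.1, per the submitters' processing notes. The plan assumed log2 values, so log2 was taken. They ranged from 7.15 to 19571.

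Of 35556 probe sets, 21789 had 1 symbol, 1621 several and 12146 none. Probe sets with 1 symbol gave 19938 genes, the brightest probe set standing for the 999 genes with several. Genes above log2 5 in at least 3 arrays (19302) were tested with limma 3.58.1 (R 4.3.3; lmFit, contrasts.fit, eBayes; 34 residual degrees of freedom), and the fit was tested on simulated data. The 6 total RNA arrays were left out. Symbols were matched by gene identifier (21698 probe sets). Of 437 entries in 30 gene lists, 409 were tested, and ribosomal protein and small nucleolar RNA genes were taken by name. The members, by title, and the other comparisons and lists were chosen with earlier results of these data known.

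Named genes were the 15 highest and lowest called against wild type without overlap, the 6 highest and lowest elsewhere, up to 4 called members per list with the largest change, and a fixed panel. Clone-numbered genes were left out. Others are named to describe their list, chosen after their values were seen. Alternatives covered scaling, filters, probe sets, the variance model, a replicate block and single arrays left out. The number of arrays limits the precision. Plots used matplotlib 3.10.9 under Python 3.11.15.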

Additional observations from a re-analysis of the deposited data

Results flagged for a closer look

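In the groups of 4 injured untagged arrays, 53 genes were checked in 2 groups for a single array far from the other 3, and 6 of the 106 gene and group pairs were found. Chance alone gives about 1 in 20. Havcr1 read 10.87 in wild-type replicate 2 against 12.61 to 12.96 in the other 3, and Fermt1 read 10.19 there against 11.35 to 11.51. Slc12a1 was the reverse, at 11.98 in wild-type replicate 2 against 10.01 to 10.14. In wild-type replicate 1, Selenbp1 read 12.88 against 11.84 to 12.02 and Actb read 13.54 against 13.42 to 13.44. In L10a background replicate 1, S100a8 read 6.51 against 6.71 to 6.75.

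The enrichment over wild type differed between injured and sham kidneys, by the contrast of both, in 12 named genes. It was larger after injury for Slc7a12 (4.20, from -4.39 in sham to -0.20), Ngp (4.09, from -0.10 to 3.98), Slco4c1 (3.91, from -4.39 to -0.48), Foxf1 (3.86, from -0.04 to 3.82), Clec4d (3.51, from 0.39 to 3.89) and Kynu (3.22, from -3.51 to -0.30). It was smaller for Havcr1 (-4.78, from 0.06 to -4.72), Igkv10-96 (-4.33, from 3.77 to -0.55), Jchain (-3.73, from 2.86 to -0.87), Cysltr1 (-3.68, from 3.88 to 0.20), Ifi44l (-3.56, from 4.67 to 1.11) and Ccr2 (-3.52, from 3.76 to 0.24).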

How the results depend on the processing

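Of 4063 values of 239 named gene results under alternatives (L10a background in place of wild type not among them), 4009 kept their direction and their side of the threshold, 50 lost the call, 4 gained it and 0 reversed. The calls lost somewhere were those of 10 genes: Adipoq, Aqp2, Cidec, Fgb, Hmox1, Plin1, Retn, Six2, Tcf21 and Treml1. Lcn2 and Actb gained a call.

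Deviations of same-numbered endothelial and wild-type IRI arrays correlated at 0.08, 0.14 and -0.13, and those of differently numbered arrays at -0.24 to 0.19. No pairing by number was seen, but so few arrays cannot exclude one. With the replicate number as a block, 3000 genes were lower in endothelial than in wild-type IRI TRAP (4956 without it), 4339 enrichments differed from sham (6552), 1488 of them larger (2660), and 2824 genes changed in wild-type TRAP (8345). Interstitial members lower were then 10, and endothelial members less enriched after injury 9. Fgb was among 7 named genes that lost the call.

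Centring on the 75th percentile gave 7907 lower genes, a test beyond 2-fold gave 1530 calls in place of 10461, and fitting only the compared groups gave 5562 changes in wild-type TRAP. A filter at log2 above 7 left 15 small nucleolar RNAs lower. With L10a background in place of wild type, 1 small nucleolar RNA, 0 proximal tubule and 7 interstitial members were lower and 1 ribosomal protein gene higher. The proximal tubule list turned direction there, with 16 members higher. The cause was not tested, except that the stricter filter and the 2-fold test admit fewer genes by construction.

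Leaving out each array in turn gave 9617 to 10848 calls against wild type (5195 to 5509 higher, 4385 to 5355 lower), 6789 to 7282 against L10a background, 10223 to 11332 in sham, 5267 to 6929 in the difference of enrichments (2032 to 2918 larger, 3235 to 4011 smaller), 8131 to 9450 against the other lines, 7858 to 9246 and 6531 to 9060 from sham to injury in endothelial and wild-type TRAP, and 7320 to 8297 against myeloid TRAP. Against wild type, members higher were 29 to 30 endothelial, 21 to 23 macrophage, 12 to 13 neutrophil, 13 to 15 interferon and 47 to 50 ribosomal. Members lower were 32 to 35 small nucleolar RNAs, 21 to 22 proximal tubule, 13 to 16 interstitial and 11 to 14 tubular injury. In the difference, 10 to 16 endothelial and 10 to 18 macrophage members were smaller and 9 to 12 neutrophil members larger.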

Other observations

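Antigen presentation genes were enriched in injured endothelial TRAP: 5 of 6 MHC class II genes were higher than in injured wild type and 1 (Ciita, the class II transactivator, -0.59) was lower. H2-Aa, a class II alpha chain, read 12.79, 12.80 and 12.80 in endothelial, 9.32, 10.94, 11.06 and 10.56 in wild-type and 12.99, 12.97 and 13.08 in myeloid arrays (2.33 ± 0.33 against wild type, adjusted p = 1.06e-07). The endothelial values lay above the wild-type values. Gimap genes, small GTPases of lymphocytes and endothelium, were higher in 5 of 8 (median 1.42), led by Gimap6 (3.23 ± 0.17, adjusted p = 7.3e-19). Gimap6 read 12.00, 12.15 and 12.12 in endothelial against 9.49, 8.84, 8.61 and 8.49 in wild-type and 9.51, 9.45 and 9.51 in myeloid arrays, so the endothelial arrays were above both.

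Of 14 basement membrane genes, 7 were enriched and 4 lower in injured kidney, against 3 higher and 10 lower in sham kidney. Over all genes, 28.5 percent were higher and 25.7 percent lower in injured kidney, and 30.9 and 29.4 percent in sham kidney. In injured kidney, the laminin chain Lama4 of endothelial basement membrane (1.78) and the matricellular Sparcl1 (2.10) led, and Lamb1 was lowest (-1.61). Within endothelial TRAP, Nid2 rose with injury by 1.72 ± 0.15 (adjusted p = 5.54e-12) and the collagen Col4a1 by 1.28 ± 0.18 (adjusted p = 1.98e-07). Cell cycle genes were higher in 9 of 15 against injured wild type and lower in 1 (Rrm2, -0.61), with a median of 0.53. Their summed intensity was 4226 to 4996 in injured endothelial and 3093 to 4312 in injured wild-type arrays. It was 4365 to 4861 in sham wild-type and 5230 to 6086 in injured myeloid arrays. Ccna2, cyclin A2, read 7.92, 8.02 and 8.44 in endothelial and 6.90, 6.60, 6.49 and 6.76 in wild-type arrays (1.44 ± 0.23, adjusted p = 1.04e-06). In sham kidney 4 were higher, but 2 without endothelial sham replicate 3, 1 without wild-type sham replicate 1 and 0 after quantile normalization or centring on the 75th percentile, and 6 were lower.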
